A study of Mus musculus with 14 samples.

Results

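Genes of neutrophil granule proteins were followed in mouse liver RNA-Seq. The 10 members are Mpo, Elane, Prtn3, Ctsg, Ms4a3, Ltf, Camp, Ngp, Lcn2 and Chil3, and they were matched by gene symbol in the deposited liver table of 54532 genes, where each was listed once. Livers were taken at day 20 from mice whose pancreas tail had been injected with KPCY cells, which are pancreatic cancer cells of the mouse with a functional Trpv4 gene. The first group (2 livers, WT) was of Piezo1 fl/fl mice, which the study uses as wild type. The second (3 livers, TRPV4-KO) was of mice that lack Trpv4 in every cell of the host. The third (3 livers, GSK219) was of WT mice given the TRPV4 antagonist GSK2193874 by gavage every day at 10 mg/kg. By the study's methods, mice were 8 to 12 weeks old and matched for sex and age within an experiment. By their reads, given below, the livers sequenced were not balanced for sex between groups. Whether the WT mice were given the carrier alone is not given in the sources used here. Cultured mouse pancreatic stellate cells (PSCs), treated with DMSO or with 25 μM of the PIEZO1 agonist Yoda1, formed the other experiment of the series.

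Neutrophils carry their antimicrobial proteins in granules that form one after the other while the cell matures in the bone marrow. Primary (azurophil) granules are filled at the promyelocyte stage with myeloperoxidase and serine proteases, and secondary (specific) granules at the myelocyte stage with lactoferrin, cathelicidin and lipocalin 2. Transcription of these genes largely ends before a neutrophil leaves the marrow, and the mature cell in blood or tissue keeps the proteins. PU.1 (Spi1) and the C/EBP factors are the transcription factors best known for driving them. Ms4a3 encodes a membrane protein of granulocyte and monocyte precursors, and Chil3 a chitinase-like lectin of myeloid cells.

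The promoters of the 10 members were all found among the RefSeq windows of GRCm38.p6, which run from 250 bases before to 50 bases after each start. The letters GAGGAAG, a core of the PU.1 site, were searched on both strands after the windows had been read, and they are shown because all 4 primary genes hold them. The choice was made on these windows, so the counts are a description. All 4 primary genes held them in the forward direction, Mpo in 2 places that do not overlap. Of all 32851 windows, 13.63% held the letters on either strand, and 7.54% in the forward direction. In the stretches below, the capitals mark GAGGAAG, and each stretch lies upstream of the RefSeq start. The gene model of Prtn3 in the deposited table begins further upstream, so its stretch lies inside that longer gene.
Mpo: gtggagagagaGAGGAAGttgcctttgtc
Elane: cgtgtcccaggGAGGAAGtagggctgtgg
Prtn3: caaactggaagGAGGAAGtgggacccaca
Ctsg: tcccagaaggaGAGGAAGaaaaggaagta

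The Mpo stretch is at chr11:87793549-87793577 on the plus strand, with the letters beginning 224 bases before the RefSeq start. The Elane stretch is at chr10:79886216-79886244 (plus strand, 85 bases before the start) and that of Prtn3 at chr10:79879561-79879589 (plus strand, 95 bases before). For Ctsg it is at chr14:56102773-56102801 on the minus strand, 216 bases before the start. Among the secondary genes, the windows of Ltf, Camp and Ngp held none, and that of Lcn2 held the letters on the reverse strand only. The windows of Ms4a3 and Chil3 held none. GCAAT, one arm of a C/EBP site, was present on one strand or the other in all 4 secondary genes, in Mpo and Elane among the primary genes, and in Ms4a3 and Chil3, against 26.39% of all windows. These matches describe the letters in the windows. Binding was not measured.

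The liver libraries held between 15567031 and 17395299 counts. Livers of one group differed by more than counting noise, with a chi-square per degree of freedom between 16.8 and 111. The targeted gene Trpv4 had counts of 43 and 53 in WT, of 15, 5 and 23 in TRPV4-KO and of 20, 30 and 36 in GSK219 livers, so reads of the gene were not absent from the livers labelled TRPV4-KO. Which exons the knockout removes is not given in the sources used here, and a count over the whole gene does not settle the label. Reads of the X-linked transcript Xist marked 1 liver of each group (replicate 1 of WT and replicate 3 of the other two), and the other 5 livers had reads of Y-linked genes. TRPV4-KO replicate 3 stood apart in many of the values below, and the tests and summed levels of the members are also given without it.

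Each of the 10 granule genes had more reads in either WT liver than in any TRPV4-KO or GSK219 liver. After scaling to library size (CPM, counts scaled to 1e6 by the TMM method), 17.7% of the 15118 genes tested separated WT from TRPV4-KO in this way, and 15.6% separated WT from GSK219. Ms4a3 was not among the genes tested. A further 5 members passed the filter on low counts only through the WT livers. For these the separation was largely set by the filter, so the shares do not weigh it. The members were chosen with earlier results of these data known, and Mpo and Elane are genes that the study names from these livers. As no group overlapped with WT, the same order holds among the livers with Xist reads and among those with Y-linked reads, each with 1 WT liver. In whole liver, fewer cells of a type cannot be told apart from less RNA per cell.

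**Figure D1:**
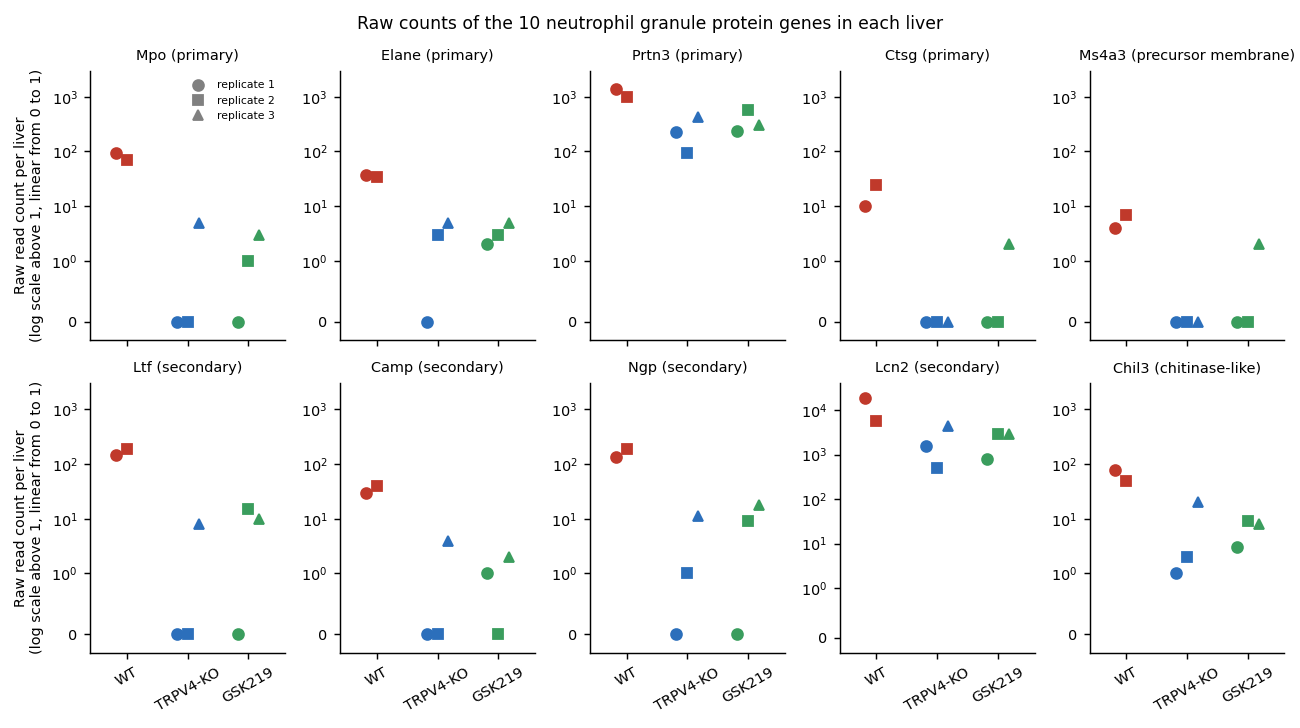
Raw read counts (vertical axis, log scale above 1 and linear from 0 to 1) of the 10 genes in each liver, by group and replicate number. Both WT livers lie above all others in each panel, only Prtn3 and Lcn2 keep 92 or more reads in every liver, and TRPV4-KO replicate 3 (triangle) holds most of the few reads of the other genes in its group.

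The first of the primary granule genes is Mpo (ENSMUSG00000009350, GRCm38 chromosome 11 from 87793581 to 87804413), which encodes myeloperoxidase, the enzyme that makes hypochlorous acid. Its counts were 92 and 70 in the WT livers, 0, 0 and 5 in the TRPV4-KO livers and 0, 1 and 3 in the GSK219 livers. WT thus did not overlap with either group, and 5 of the 6 other livers had at most 3 reads. The level was 4.89 ± 1.14 (SD, n = 2) CPM in WT, 0.0965 ± 0.167 (SD, n = 3) in TRPV4-KO and 0.0799 ± 0.0912 (SD, n = 3) in GSK219. From the summed counts, WT exceeded TRPV4-KO 47.2-fold, with an exact 95% interval from 19.8 to 147 that covers counting error only. Against GSK219 the ratio was 59.8 (from 22.9 to 222).

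Elane (ENSMUSG00000020125, chromosome 10 from 79886247 to 79888215) encodes neutrophil elastase. Its reads numbered 37 and 34 in WT, 0, 3 and 5 in TRPV4-KO and 2, 3 and 5 in GSK219. The WT livers were close to each other, and the other 6 livers lay at or under 5 reads. By summed counts WT was 12.9-fold higher than TRPV4-KO (from 6.21 to 31.1) and 10.5-fold higher than GSK219 (from 5.38 to 22.8).

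Ctsg (ENSMUSG00000040314, chromosome 14 from 56099881 to 56102574) encodes cathepsin G. Its counts were 10 and 24 in WT, 0 in each of the 3 TRPV4-KO livers and 0, 0 and 2 in the GSK219 livers. At these depths, 3 counts in each library, about the upper 95% limit for a count of 0, would be 0.174 to 0.194 CPM in the TRPV4-KO livers, so Ctsg was at least 5.43-fold higher in WT. Against GSK219 the ratio of summed counts was 25.1 (from 6.43 to 216).

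Prtn3 (ENSMUSG00000057729, chromosome 10 from 79874476 to 79883174) encodes proteinase 3 and lies 3073 bases from Elane on the same strand. It differed from its neighbour in level. Its counts were 1359 and 1006 in WT, 223, 92 and 427 in TRPV4-KO and 240, 578 and 301 in GSK219. No liver was near 0, and the WT livers were above all others. Levels were 71.3 ± 18 (SD, n = 2) CPM in WT, 14.9 ± 9.41 (SD, n = 3) in TRPV4-KO and 22.7 ± 10.7 (SD, n = 3) in GSK219. By summed counts WT was 4.64-fold higher than TRPV4-KO (from 4.27 to 5.05) and 3.12-fold higher than GSK219 (from 2.90 to 3.35).

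Reads of Prtn3 per read of Elane numbered 36.7 and 29.6 in the WT livers. In the livers of the other groups with any Elane read, the ratio was 30.7 and 85.4 (TRPV4-KO replicates 2 and 3) and 120, 193 and 60.2 (GSK219). On the scale of CPM per kb of gene length, Prtn3 was 20.9 and 16.8 times Elane in the WT livers. Elane had 0 to 5 reads outside WT, so those ratios rest on few reads. An upstream exon of Prtn3 overlaps Plppr3, a gene of the opposite strand, and 6.45% of the 50-base stretches of Prtn3 transcripts are shared with it. Plppr3 had counts of 123 and 147 in WT, 67, 68 and 109 in TRPV4-KO and 96, 122 and 82 in GSK219. Whether counting used the strand is not given in the sources used here, and the part of Plppr3 in the Prtn3 counts was not tested.

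Ms4a3 (ENSMUSG00000024681, chromosome 19 from 11629496 to 11640851), the membrane protein of precursors, had the fewest reads. Its counts were 4 and 7 in WT, 0 in all 3 TRPV4-KO livers and 0, 0 and 2 in GSK219. It was at least 1.76-fold higher in WT than in TRPV4-KO, and its ratio to GSK219 was 8.12 (from 1.77 to 75.4). It did not pass the filter on low counts and was not tested.

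Of the secondary granule genes, Ltf (ENSMUSG00000032496, chromosome 9 from 111019271 to 111042767) encodes lactoferrin, which binds iron. It had counts of 143 and 188 in WT, of 0, 0 and 8 in TRPV4-KO and of 0, 15 and 10 in GSK219. A level of 9.90 ± 1.49 (SD, n = 2) CPM in WT compared with 0.154 ± 0.267 (SD, n = 3) in TRPV4-KO and 0.501 ± 0.461 (SD, n = 3) in GSK219. Both WT livers were far above the rest, at ratios of 60.2 (from 30.2 to 141) to TRPV4-KO and 19.5 (from 13.0 to 30.6) to GSK219 by summed counts.

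Camp (ENSMUSG00000038357, chromosome 9 from 109847379 to 109849617) encodes the cathelicidin CRAMP, an antimicrobial peptide. Its counts were 30 and 39 in WT, 0, 0 and 4 in TRPV4-KO and 1, 0 and 2 in GSK219. No liver outside WT had more than 4 reads. The ratio of summed counts was 25.1 (from 9.38 to 94.8) for TRPV4-KO and 33.9 (from 11.1 to 169) for GSK219.

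Ngp (ENSMUSG00000032484, chromosome 9 from 110419747 to 110423012) encodes neutrophilic granule protein, a relative of the cathelicidins. It had counts of 134 and 187 in WT, of 0, 1 and 11 in TRPV4-KO and of 0, 9 and 18 in GSK219. As with Ltf, WT replicate 2 was the higher of the WT livers, and replicate 1 of both other groups had no reads. The ratios were 39.0 (from 22 to 76.2) to TRPV4-KO, where 11 of the 12 reads were from replicate 3, and 17.5 (from 11.8 to 27.0) to GSK219.

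Lcn2 (ENSMUSG00000026822, chromosome 2 from 32384633 to 32388252) encodes lipocalin 2, which binds bacterial siderophores and is also made by hepatocytes in the acute-phase response. Its counts were 18356 and 5571 in WT, 1534, 508 and 4401 in TRPV4-KO and 801, 2846 and 2814 in GSK219. WT replicate 1 exceeded WT replicate 2, the reverse of their order for Ltf, Camp and Ngp, and WT replicate 2 was not far above TRPV4-KO replicate 3. The levels were 730 ± 573 (SD, n = 2) CPM in WT, 128 ± 114 (SD, n = 3) in TRPV4-KO and 130 ± 69.1 (SD, n = 3) in GSK219. By summed counts WT was 5.41-fold higher than TRPV4-KO (from 5.26 to 5.56) and 5.46-fold higher than GSK219 (from 5.32 to 5.62). These values rest on WT replicate 1. Without it the log2 ratio of Lcn2 moved from 2.51 to 1.36 over TRPV4-KO and from 2.49 to 1.32 over GSK219.

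Chil3 (ENSMUSG00000040809, chromosome 3 from 106147554 to 106167564), the chitinase-like lectin, was counted 79 and 48 times in WT, 1, 2 and 20 times in TRPV4-KO and 3, 9 and 8 times in GSK219. TRPV4-KO replicate 3 was the nearest to WT. The ratio of summed counts was 8.04 (from 5.13 to 13.1) for TRPV4-KO, 39.7 (from 13.3 to 195) without its replicate 3, and 9.37 (from 5.82 to 15.9) for GSK219. Of its 50-base stretches, 26.9% also occur in Chil4 or Gm6522, which had 0 counts in all 8 livers, so its count depends on how shared reads were assigned and is uncertain. Mpo shares 9.46% of its stretches with other genes, mainly the antisense Gm11505, which was likewise at 0 in all livers. The remaining members other than Prtn3 shared none.

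Between genes, levels were compared as CPM per kb of gene length. In WT, Lcn2 came first with 278 ± 219 (SD, n = 2), followed by Prtn3 with 41.2 ± 10.4 and Ngp with 7.85 ± 1.51. These 3 did not overlap between livers. Ltf (2.87 ± 0.43), Camp (2.72 ± 0.39), Chil3 (2.35 ± 0.91) and Elane (2.17 ± 0.22) followed, and each overlapped with the next in this order. Mpo (1.43 ± 0.33) and Ctsg (0.976 ± 0.534) overlapped as well and lay below Elane, and Ms4a3 was last at 0.174 ± 0.060. Lcn2 and Prtn3 were also the first and the second in the other groups, with 48.9 ± 43.5 (SD, n = 3) and 8.62 ± 5.43 in TRPV4-KO and 49.6 ± 26.3 and 13.1 ± 6.18 in GSK219.

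The fit across all genes answered whether these differences exceeded the spread between livers. Of the 10 members, 9 passed edgeR's filter on low counts, of which 5 (Mpo, Elane, Ctsg, Camp and Chil3) passed only through the WT livers. Between WT and TRPV4-KO, 0 of 9 members passed the threshold (adjusted p below 0.05, log2 fold change above 1) in edgeR's quasi-likelihood test, against 0.152% of all genes tested that were higher in WT by this threshold (23 genes). At an unadjusted p under 0.05, 9 of 9 were higher in WT, against 9.5% of all genes, and DESeq2 called 5 of 9, against 2.45% of all genes. Members that entered the test only through WT had to differ, so these counts are no support for a difference of the group as a whole.

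The members nearest to an adjusted p of 0.05 in edgeR were Mpo, with a log2 ratio of 5.48 (SE 0.93) and an edgeR adjusted p of 0.069, Elane with 3.64 (SE 0.72) and 0.095, Ltf with 5.87 (SE 1.16) and 0.0995, and Camp with 4.54 (SE 0.94) and 0.10. Ngp had a log2 ratio of 5.26 (SE 1.13) and an edgeR adjusted p of 0.115. Ctsg, at 0 reads in TRPV4-KO, had the same adjusted p after rounding. For Prtn3 the log2 ratio was 2.25 (SE 0.57) with an edgeR adjusted p of 0.149, for Chil3 3.04 (SE 0.86) with 0.157 and for Lcn2 2.51 (SE 0.98) with 0.271. Prtn3 and Lcn2, which had the most reads, had the smallest ratios. The median log2 ratio of the 9 members was 4.54, or 3.64 with Ctsg at its lower bound, and that of all genes tested was -0.01.

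The calls turned on 1 library and on the model. Of the summed counts of the 8 genes other than Prtn3 and Lcn2, 88.3% of those in TRPV4-KO livers came from replicate 3 (53 reads, against 1 and 6 in replicates 1 and 2). Without TRPV4-KO replicate 3, 8 of 9 members passed the threshold, Lcn2 being the exception, with adjusted p between 0.015 and 0.046 by edgeR, and the number of all genes higher in WT rose from 23 to 573 (3.83%). Mpo, Ctsg, Ltf and Camp then had 0 reads in TRPV4-KO, and Ngp had 1. By summed counts WT was then 22.2-fold higher than TRPV4-KO for Elane (from 7.29 to 110), 7.04-fold for Prtn3 (from 6.26 to 7.94) and 11.0-fold for Lcn2 (from 10.5 to 11.5). Leaving out any other liver called 0 members. With a term for sex, read from Xist and Y-linked genes, 6 of 9 passed (Mpo, Elane, Ltf, Camp, Ngp and Chil3) against 1.67% of all genes, and with no filter on low counts 4 of 10 (Mpo, Elane, Camp and Ctsg) against 0.37%. TRPV4-KO replicate 3 is also the 1 liver of its group with Xist reads.

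Between WT and GSK219, 0 of 9 members passed the threshold by edgeR, and so did 0% of all genes tested. At an unadjusted p under 0.05, 9 of 9 were higher in WT, against 5.87% of all genes, and DESeq2 called 3 of 9 (Mpo, Camp and Elane) against 0.423% of all genes. Mpo, Camp and Elane entered the test only through WT, as did Ctsg and Chil3, and so had to differ here too. These counts are therefore no support for a difference of the group as a whole. The log2 ratios were 5.78 for Mpo (SE 0.95, edgeR adjusted p of 0.276), 3.35 for Elane, 4.40 for Ctsg and 1.65 for Prtn3 among the primary genes. Among the secondary genes they were 4.27 for Ltf, 4.92 for Camp, 4.12 for Ngp and 2.49 for Lcn2, and Chil3 had 3.22. The adjusted p of these 8 lay between 0.391 and 0.588 by edgeR. With livers left out in turn, the log2 ratio ran from 5.26 to 6.99 for Mpo and from 3.89 to 7.06 for Ctsg. For Ltf it ran from 3.71 to 4.99 and for Ngp from 3.55 to 5.08. Both comparisons use the same 2 WT livers, so the values stand side by side and do not bear each other out. GSK219 replicate 1 had 6 reads of the 8 genes other than Prtn3 and Lcn2, and replicates 2 and 3 had 37 and 50.

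**Figure D2:**
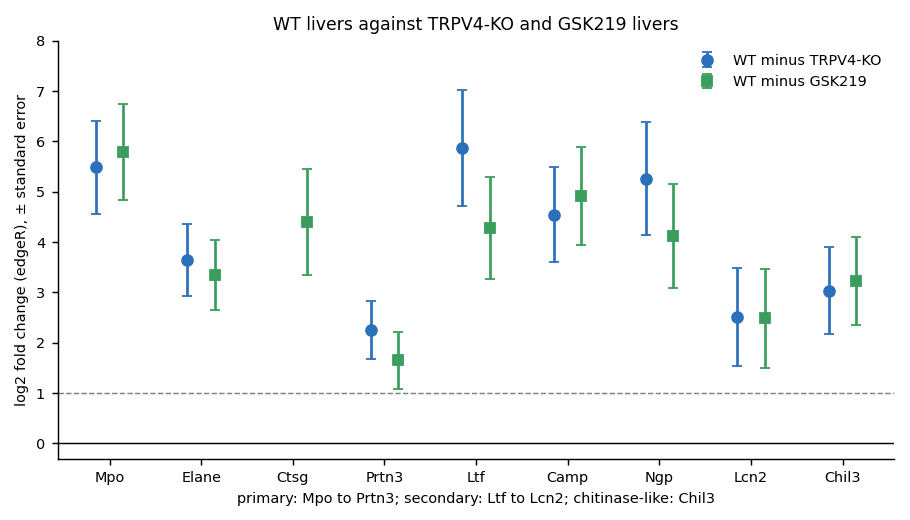
Log2 fold changes of WT over TRPV4-KO (circles) and of WT over GSK219 (squares) by edgeR for the 9 genes tested, with bars of 1 standard error. All lie above the dashed line at 1, Prtn3 and Lcn2 are lowest in both comparisons, and none passed an adjusted p of 0.05. Ctsg has no circle because it had 0 reads in TRPV4-KO, and several groups hold under 5 reads per liver.

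TRPV4-KO and GSK219 livers were compared directly. By edgeR 0 of 9 members passed in either direction, where 0.0529% of all genes were higher in TRPV4-KO and 0.0463% lower. At an unadjusted p under 0.05 there were also 0 of 9, against 3.48% of all genes higher and 2.64% lower, and DESeq2 called 0. Log2 fold changes (TRPV4-KO over GSK219) were -0.60 for Prtn3 (SE 0.52), -0.02 for Lcn2 (0.88), 0.30 for Mpo (1.30), -0.30 for Elane (0.82) and 0.18 for Chil3 (0.91). Among the rest they were -1.59 for Ltf (SE 1.27), -1.14 for Ngp (1.21) and 0.38 for Camp (1.31). Ctsg had 0 reads against 2. The groups overlapped for each of the 10 genes, and the standard errors, which hold the spread between livers, ran from 0.52 to 1.31 for these 8. Without TRPV4-KO replicate 3, the median log2 ratio of the 9 members moved from -0.30 to -2.65 (all genes -0.01), 0 of 9 were positive and 0 of 9 passed the threshold. Mpo, Ctsg, Ltf and Camp then had 0 reads in TRPV4-KO, so this median rests on fitted values for genes without reads. Prtn3 and Lcn2, which kept reads in every liver, were at -1.18 and -1.01. At an unadjusted p under 0.05, 2 of 9 were then lower in TRPV4-KO, against 7.71% of all genes.

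Primary and secondary granule genes were then compared as groups. The counts of Mpo, Elane, Prtn3 and Ctsg were summed, and their share was taken of these plus the counts of Ltf, Camp, Ngp and Lcn2. The primary share was 7.43% and 15.9% in the WT livers, 12.7%, 15.7% and 8.99% in the TRPV4-KO livers and 23.2%, 16.9% and 9.86% in the GSK219 livers. The groups overlapped, with means of 11.7% ± 6.01 (SD, n = 2), 12.5% ± 3.37 (SD, n = 3) and 16.6% ± 6.66 (SD, n = 3). Within a liver the exact 95% binomial intervals were narrow, from 7.07% to 7.80% in WT replicate 1 and from 12.9% to 18.9% in TRPV4-KO replicate 2, the library with the fewest reads of these genes. The livers with Xist reads had the lowest share of their groups (7.43%, 8.99% and 9.86%).

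This share was set by a single gene on each side. Prtn3 made up between 88.7% and 100% of the primary counts of a liver, and Lcn2 between 93.1% and 100% of the secondary counts. Without Lcn2, the primary share rose to 83.0% and 73.3% in WT, to 100%, 99% and 95% in TRPV4-KO and to 99.6%, 96.0% and 91.2% in GSK219. On this scale the WT livers lay below all others. Outside WT, Prtn3 kept 92 to 578 reads per liver, and Ltf, Camp and Ngp together had 0 to 30. Dividing counts by gene length in kb gave 16.2% ± 7.77 (SD, n = 2) in WT, 17.8% ± 4.71 (SD, n = 3) in TRPV4-KO and 23.1% ± 8.60 (SD, n = 3) in GSK219 for the 8 genes.

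Without both Prtn3 and Lcn2, the 3 remaining genes of each kind held 139 primary and 307 secondary reads in WT replicate 1, and 128 and 414 in WT replicate 2. The primary share was 31.2% (exact 95% interval from 26.9% to 35.7%) and 23.6% (from 20.1% to 27.4%). TRPV4-KO replicate 3 had 10 and 23 reads, a share of 30.3% (from 15.6% to 48.7%), and GSK219 replicates 2 and 3 had shares of 14.3% (from 4.03% to 32.7%) and 25% (from 12.7% to 41.2%). The other 3 livers held at most 4 such reads, and TRPV4-KO replicate 1 had none. Between these 6 genes, a change in the balance of the 2 kinds was not detectable at this depth. Summed over their group, the ratio of WT to TRPV4-KO was 29.9 (from 17.2 to 56.9) for Mpo, Elane and Ctsg and 43.7 (from 29.2 to 68.7) for Ltf, Camp and Ngp. For WT to GSK219 it was 24.6 (from 14.9 to 43.7) and 19.3 (from 14.7 to 25.9). In each comparison the 2 intervals overlap. Without TRPV4-KO replicate 3 the ratios of WT to TRPV4-KO were 7.76 (from 6.91 to 8.75) for the 4 primary genes and 11.3 (from 10.8 to 11.8) for the 4 secondary genes, against 5.08 (from 4.68 to 5.51) and 5.55 (from 5.40 to 5.70) with it. Without WT replicate 1 the ratio of the 4 secondary genes was 2.62 (from 2.53 to 2.71) and that of the 4 primary genes 4.25 (from 3.87 to 4.66). Over GSK219 they were then 2.63 (from 2.54 to 2.73) and 2.86 (from 2.63 to 3.11), against 5.58 and 3.42 with it, so their order turned in both comparisons. Without TRPV4-KO replicate 3, Mpo, Elane and Ctsg had 3 reads in TRPV4-KO, and Ltf, Camp and Ngp 1.

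**Figure D3:**
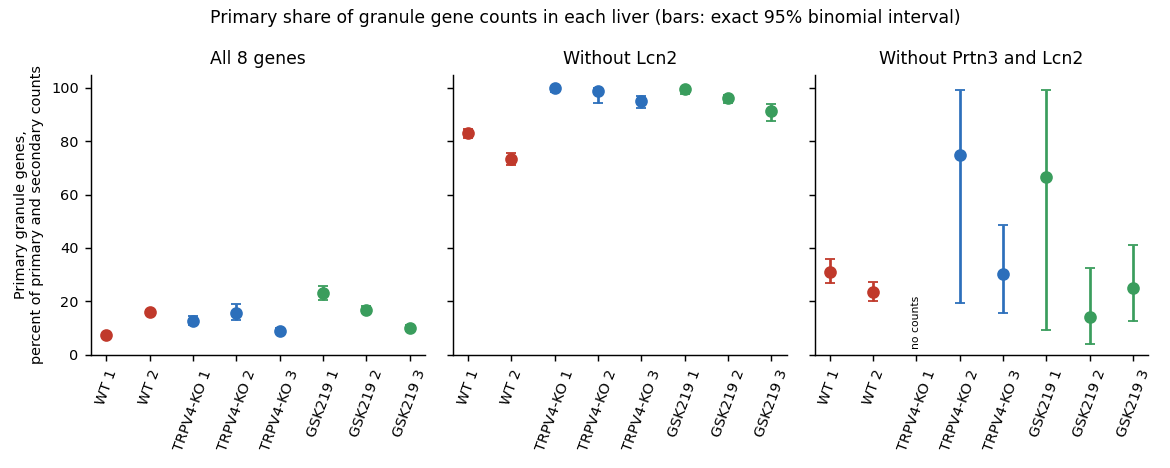
Percent of granule gene counts that fall on primary granule genes in each liver, for all 8 genes, without Lcn2, and without Prtn3 and Lcn2, with exact 95% binomial intervals. For all 8 genes the share of WT replicate 1 is the lowest and that of WT replicate 2 lies among the other groups, and both WT shares are below all others without Lcn2 and within wide intervals of the others without both.

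Other genes of neutrophil maturation were read from lists. Of 6 further primary granule genes, 4 were tested and 0 passed between WT and TRPV4-KO, with a median log2 fold change of 0.49 (all genes -0.01). Srgn, the proteoglycan that holds granule proteins, had a value of 0.98 (edgeR adjusted p of 0.163), and Ctsc, the protease that activates the granule proteases, one of 0.45 (edgeR adjusted p of 0.660). Cd63, a granule membrane protein, had 0.53 (edgeR adjusted p of 0.546). Serpinb1a, an inhibitor of these proteases, had -2.04 (edgeR adjusted p of 0.477), which rests on 270 reads in TRPV4-KO replicate 3. Without that liver it was 0.08. Bpi was at 0 counts in all livers.

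Of 9 further secondary granule genes, 8 were tested, and Cd177, a neutrophil surface protein held in specific granules, was the 1 that passed (log2 ratio 4.93, edgeR adjusted p of 0.036). The study itself names Cd177 and Mmp8 from these livers, so they are not independent evidence. Its call was lost in 5 of 14 alternatives, all of which left out 1 liver, with adjusted p up to 0.226 by edgeR. The median of the 8 was 1.42. Hp, haptoglobin, which hepatocytes make in quantity, had a value of 1.03, Anxa3 1.42 and Mmp8, the neutrophil collagenase, 2.94, with adjusted p between 0.092 and 0.150 by edgeR. Mmp8 had 10 and 50 reads in WT, and its value was 1.45 without WT replicate 2. Of 7 genes of gelatinase granules and secretory vesicles, 6 were tested and 0 passed, with a median of 1.11. Mmp9 (gelatinase B) was at 2.22, Adam8 at 1.52, Slc11a1 at 1.18 and Fpr1, the formyl peptide receptor, at 1.02, with adjusted p from 0.131 to 0.360 by edgeR.

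Of 6 genes of mature neutrophils, 5 were tested and 2 passed in WT against TRPV4-KO, S100a8 (log2 ratio 3.67, edgeR adjusted p of 0.028) and Cxcr2 (3.33, 0.028). The calls were lost in 6 (S100a8) and 7 (Cxcr2) of 14 alternatives, with adjusted p up to 0.211 and 0.279 by edgeR. Both are also genes the study names from these livers. S100a9, which the study names as well, had a value of 3.84 (edgeR adjusted p of 0.069) and Il1b 2.41 (0.119), and the median was 3.33. With livers left out in turn, the log2 ratio ran from 3.42 to 4.88 for S100a9, 2.08 to 3.24 for Il1b and 3.29 to 4.38 for S100a8. Ly6g, the surface protein that defines mouse neutrophils, had counts of 2 and 3 in WT, 0, 0 and 1 in TRPV4-KO and 0, 0 and 1 in GSK219. Between WT and GSK219, 0 genes of these 4 lists passed by edgeR, with medians of 0.52, 1.17, 1.22 and 2.79 in the order above (all genes -0.00149).

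Of 8 factors and markers of granulocyte formation, 5 were tested and 0 passed in either comparison. Spi1, which encodes PU.1, had counts of 606 and 618 in WT, 164, 150 and 320 in TRPV4-KO and 137, 272 and 352 in GSK219, which is a log2 ratio of 1.51 over TRPV4-KO (edgeR adjusted p of 0.138). Csf3r, the receptor for G-CSF, had one of 1.5 (0.161) and Runx1 one of 1.46 (0.235). The 5 Kupffer cell markers given below had a median log2 ratio of 1.36. Which cells held the Spi1 reads was not tested. Cebpa, which hepatocytes also express, was at -0.21 (edgeR adjusted p of 0.703). The following 4 were chosen after their values were seen. Cebpe, the factor needed for secondary granules, had counts of 129 and 142 in WT, 147, 170 and 157 in TRPV4-KO and 251, 180 and 99 in GSK219, and so was not higher in WT (log2 ratio -0.27, edgeR adjusted p of 0.749). Myb, a factor of precursors, had 4 and 6 reads in WT and 1 read in all other livers together. Fcnb, ficolin B of marrow granulocytes, had 12 and 8 reads in WT and 1 elsewhere. Gfi1, a transcriptional repressor that neutrophil formation needs, had 3 and 1 reads in WT, 0, 2 and 1 in TRPV4-KO and 0, 3 and 1 in GSK219, which overlap.

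The 8 genes other than Prtn3 and Lcn2 summed to 32.7 and 34.8 CPM in the WT livers, 0.0632, 0.389 and 3.07 in TRPV4-KO and 0.378, 2.24 and 2.99 in GSK219. Their mean in WT was 28.8 times that in TRPV4-KO and 18.1 times that in GSK219. The 6 genes of mature neutrophils summed to 53.0 to 59.3 CPM in WT, 3.10 to 11.5 in TRPV4-KO and 5.6 to 12.3 in GSK219, a fold between means of 8.92 and 5.73. Without TRPV4-KO replicate 3 the folds over TRPV4-KO were 149 and 15.2. Il1b alone averaged 17.0 of the 56.2 CPM of the mature neutrophil sum in WT. In TRPV4-KO it averaged 3.18 of 6.30 and in GSK219 6.32 of 9.80. The mature neutrophil folds therefore depend on Il1b being in the list. With Prtn3 and Lcn2 kept, the 4 primary and the 4 secondary genes had folds between means of 5.23 and 5.84 over TRPV4-KO and of 3.45 and 5.73 over GSK219. Whether the granule genes exceed the mature neutrophil genes thus depends on leaving out these 2, and its size on the genes in the list. No such difference was tested.

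The summed markers of other myeloid cells were also higher in WT. Of 5 Kupffer cell markers 5 were tested, 5 had positive log2 fold changes in WT over TRPV4-KO and 0 passed, and Clec4f, which defines these cells, had 1.36 (edgeR adjusted p of 0.161). Their summed level was 1137 to 1269 CPM in WT, 304 to 676 in TRPV4-KO and 332 to 780 in GSK219, 2.61 and 2.13 times higher in WT (3.39 times over TRPV4-KO without replicate 3). Of 5 monocyte markers 1 passed, F13a1 (log2 ratio 2.47, edgeR adjusted p of 0.0499), a call lost in 8 of 14 alternatives (adjusted p up to 0.407 by edgeR). Their sum was 508 to 622 CPM in WT, 166 to 338 in TRPV4-KO and 164 to 401 in GSK219. Markers of platelets summed to 12.3 to 15.5 CPM in WT and 4.99 to 10.2 elsewhere. The 6 markers of eosinophils, basophils and mast cells, none of which passed the filter, summed to 0.932 and 1.48 CPM in WT and to at most 0.725 elsewhere, with folds between means of 5.53 over TRPV4-KO (12.5 without replicate 3) and 3.15 over GSK219. Siglecf had 17 and 9 reads in WT and 1 to 7 elsewhere, Epx had 2 and 2 against 0, and Cpa3 and Fcer1a were at 0 in WT. Hepatocyte markers summed to 48035 to 58372 CPM in WT against 67684 to 89490 in the other livers, which was carried by Alb (log2 ratio -0.81, edgeR adjusted p of 0.151). Without Alb the other 4 markers summed to 13997 to 16399 CPM in WT, 15461 to 16002 in TRPV4-KO and 13991 to 16369 in GSK219, with overlap between all groups, and Apoa1 had a log2 ratio of 0.24. The part of these cell types in the granule gene values was not tested.

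Markers of other lineages were less uniform. Erythroid markers summed to 238 to 270 CPM in WT, 286 to 323 in TRPV4-KO and 167 to 317 in GSK219, but the list did not go one way. Hba-a1 had a log2 ratio of -0.33 in WT over TRPV4-KO (edgeR adjusted p of 0.599), whereas Klf1, the erythroid transcription factor, had one of 2.20 (edgeR adjusted p of 0.069). Kit, Cd34 and Flt3 of stem and progenitor cells summed to 23.9 to 34.6 CPM in WT, 13.6 to 18.3 in TRPV4-KO and 17.8 to 31.6 in GSK219, where WT was above TRPV4-KO and overlapped with GSK219. B cell markers were at 0.525 to 2.91 CPM in WT and 2.66 to 10.1 in TRPV4-KO, and T cell markers at 1.46 to 3.4 and 0.777 to 2.78, with overlap in both. Markers of ducts and tumor epithelium overlapped between WT (44.2 to 78.4 CPM) and TRPV4-KO (34.7 to 62.1).

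**Figure D4:**
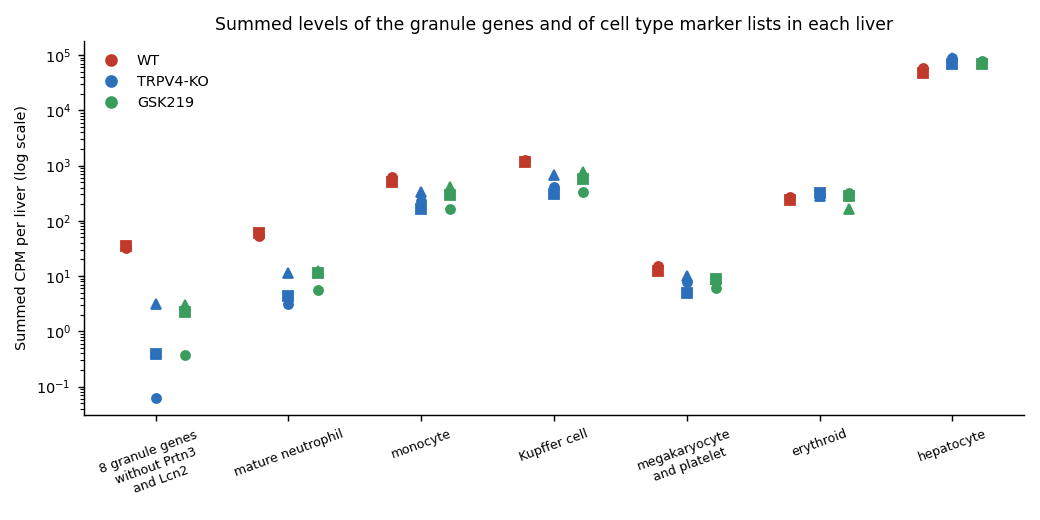
Summed CPM per liver (log scale) of the 8 granule genes other than Prtn3 and Lcn2 and of marker lists of cell types, colored by group, with circles, squares and triangles for replicates 1, 2 and 3. The granule genes of WT lie between 32.7 and 34.8 CPM against 3.07 or less elsewhere, while erythroid markers of WT lie within the range of GSK219 and the hepatocyte sum, most of it Alb, is lower in WT.

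Genes whose pattern over the 8 livers was most like that of the members were found by Pearson's r of log2(CPM + 1) among 13216 other genes with a mean of at least 1 CPM. All livers share the split of WT from the rest, so a high r is a description. For the summed primary genes, where Prtn3 prevails, the nearest were Was (r = 0.993), Tnfrsf1a (0.990), Rps6ka4 (0.989), Mvb12b (0.985) and Apba1 (0.984). For Ltf, Camp and Ngp they were S100a9 (r = 0.992), Slc8a1 (0.992), Engase (0.986) and Tmem263 (0.983). S100a9 encodes a subunit of calprotectin, which fills the cytosol of neutrophils.

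A further 3 patterns were chosen once the values were known. With Mpo, Elane and Ctsg alone the nearest genes were S100a8 (r = 0.992), Cyp1b1 (0.988), S100a9 (0.983), Trem2 (0.981) and Rhbdf2 (0.979). Without Prtn3, both calprotectin genes were thus among the 5 nearest, with Cyp1b1 between them. Prtn3 alone was nearest to Tnfrsf1a (r = 0.992), the receptor of TNF, and to Was (0.990), the Wiskott-Aldrich protein of blood cells. Lcn2 alone was nearest to Naip5 (r = 0.992), Runx1 (0.991), Pam (0.990), Il1a (0.990) and Wdfy4 (0.989). Between members, r over the 8 livers was 0.99 for Mpo and Elane, 0.99 for Ltf and Ngp, 0.82 for Elane and Prtn3 and 0.93 for Prtn3 and Lcn2. Over the 6 livers outside WT, r was 0.77 for Mpo and Elane and 0.87 for Ltf and Ngp. It was 0.22 for Elane and Prtn3 and 0.85 for Prtn3 and Lcn2. Prtn3 also had an r of 0.80 with Ltf, 0.67 with Chil3, 0.58 with Ngp and 0.51 with Mpo. With Camp it was 0.35, and with Ctsg and Ms4a3 0.07. Elane had 0 to 5 reads in these livers, so its r rests on few reads.

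Stellate cells gave the level of the members in cultured cells of another kind. The deposited values are not whole numbers. Their low values step like gene counts divided by a size factor in all but 1 library, so this unit was inferred from the values. Only Mpo, Prtn3 and Lcn2 were listed among the 10. Mpo had values of 3.74, 12.3 and 10.1 with DMSO and 3.76, 5.76 and 3.21 with Yoda1, and Prtn3 1.25, 1.12 and 1.01 with DMSO and 9.41, 4.11 and 3.21 with Yoda1. Both were below the filter (a value of 10 in at least 3 libraries) and were not tested. Prtn3 was higher with Yoda1 in each preparation, at a few reads per library.

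Lcn2 had values of 378, 561 and 1452 with DMSO and 517, 1292 and 2052 with Yoda1. The treatments overlapped, but Yoda1 was higher within each of the 3 preparations, by 1.37, 2.30 and 1.41 times. On log2(value + 1) limma gave a ratio of 0.72 (SE 0.64) with an unadjusted p of 0.302 and an adjusted p of 0.547. So 0 of 1 member tested passed the threshold, where 0.733% of 15145 genes were higher with Yoda1. With the preparation as a replicate block, limma gave the same ratio with an adjusted p of 0.040, and 8.68% of all genes were higher at an adjusted p under 0.05 with this block. The change stayed under the fold threshold in both fits.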

How the data were processed

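For the livers, the authors deposited raw counts of reads per gene on GRCm38. HISAT2 2.0.5 and Trim Galore stand in the submitters' processing notes, and the counting tool and its strand setting are not given in the sources used here. Another 7 count columns carry names of no sample described here and were left out. The PSC table deposited by the authors holds a signal, read from its values as scaled gene counts (in 1 library the low values do not step evenly), and its columns of their own comparison (log2 fold change, error, statistic, p-values) were not read. The livers were fitted together with edgeR 4.0.16 under R 4.3.3 (TMM, low-count filter with a minimum count of 10, robust quasi-likelihood), the PSCs with limma 3.58.1, and DESeq2 1.42.0 served as an alternative. The threshold was a Benjamini-Hochberg p below 0.05 over all genes tested and a log2 fold change above 1. The p-values measure the spread between these samples.

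The members and the lists were chosen with earlier results of these data known. The text names all 10 members, at most 4 tested genes of each other list (those of smallest p in WT against TRPV4-KO) beside genes said to be chosen by their values, and the 5 genes most like the summed primary genes and most like Ltf, Camp and Ngp, of which 1 is not reported here. Ratios of summed counts use TMM library sizes and exact conditional intervals, and a group at 0 counts was set to 3 counts per library for a lower bound. Intervals and bounds cover only counting error, since these reads carry no molecular identifiers. Promoters are from RefSeq (GRCm38.p6). PSC libraries of the same number come from one preparation and deviated together from their treatment means (r = 0.43, 0.26 and 0.53 across genes), so they are paired. The scripts were tested on simulated data. Sums without TRPV4-KO replicate 3, WT replicate 1 or Alb were chosen with their values known. Alternatives are given in the closing section.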

Additional observations from a re-analysis of the deposited data

How the results depend on the processing

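Between WT and TRPV4-KO, where 0 granule genes passed, DESeq2 called 5, no filter on low counts 4, the replicate block 6 and the sex term 6, and with each liver left out in turn the number lay between 0 and 8. Between WT and GSK219, DESeq2 called 3 and the replicate block 1 (Mpo), where 9 of 15118 genes were higher in WT. RLE size factors, only the 2 groups compared and no limit on the fold change called 0 in these comparisons, and every alternative called 0 between TRPV4-KO and GSK219, where a fit of only those groups tested Prtn3 and Lcn2 alone. Livers with the same replicate number share only a number: their deviations correlated between -0.54 and 0.61 across genes (7 pairs). Over all genes, 23 were higher in WT against TRPV4-KO, and 370 with DESeq2, 100 with no filter, 11 with only the 2 groups, 351 with the replicate block and 252 with the sex term. Every log2 fold change of a member in WT over TRPV4-KO (112 values for 8 members) and over GSK219 (125 for 9) stayed positive under every alternative run.

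Among the members, directions turned only between TRPV4-KO and GSK219, for Chil3 with the replicate block (-0.21) and the sex term (-0.0661), and with livers left out in turn, where the log2 fold change ran from -3.53 to 1.51 for Mpo, -1.02 to 0.26 for Elane, -3.16 to 1.21 for Camp, -1.01 to 0.44 for Lcn2 and -2.0 to 0.68 for Chil3. The cause was not tested. Among the other named genes, calls were lost in 26 of 560 values (Cd177, S100a8, Cxcr2 and F13a1) and gained in 58, of which 14 with DESeq2 (S100a9, Hp, Il1b, Anxa3, Spi1, Mmp9, Clec4f and Csf3r among them), 10 with the replicate block, 11 with the sex term, 4 with no filter and 19 without TRPV4-KO replicate 3, and Serpinb1a turned in WT over TRPV4-KO, from -3.68 to 0.084. The mean primary share without Lcn2 was 78.1% (WT), 98.0% (TRPV4-KO) and 95.6% (GSK219), and without Prtn3 and Lcn2 27.4%, 52.7% (2 livers with reads) and 35.3%. Per kb it moved past its spread in TRPV4-KO (17.8%). No alternative moved the count in PSCs, and the planned edgeR test on recovered PSC reads was not run, because the low values of 1 library were not whole multiples of a step. With 2 WT livers and at most 20 reads per liver outside WT for each of the 8 genes other than Prtn3 and Lcn2, folds are limited by depth.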
